A study of Drosophila melanogaster with 30 samples.

Results

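The comparison set posterior fragments of the Drosophila melanogaster prothoracic leg disc, 24 h after cutting, against the posterior region of fresh discs that were neither cut nor cultured. The leg disc is the epithelial sac in the larva that gives rise to an adult foreleg. The probe sets followed were those that the authors listed in both of their deposited comparison tables, one of cut against uncut cultured regions and one of uncut cultured against uncultured regions. These were 942 of the 18952 probe sets in the value table. Adding the authors' log fold change of cut over uncut 24 h posterior discs to that of uncut 24 h over uncultured posterior discs cancels the uncut cultured group, and the sum is the cut 24 h minus uncultured difference. Of the 942 probe sets, 911 carried a gene name, and they stood for 886 genes. The authors filtered both tables on an overall test that includes these groups, so the number of members that differ is a description and nothing is read from it.

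The series held 30 arrays in 10 groups of 3, which the sample titles call biological replicates. All larvae were males of 100 h of age and of one genotype: w over Y, AyGAL4 and UAS-GFP over a wild-type chromosome, and puc[E69-I]-GAL4 over UAS-flp. In these animals GAL4 is made wherever puc is expressed, a gene that JNK activity switches on and that encodes a phosphatase acting back on JNK, and it starts a heritable GFP label. The 3 cut 24 h posterior samples came from discs cut to a posterior 3/4 fragment and kept for 24 h at 25 °C in the abdomen of an adult female fly, after which only the GFP-positive region was taken. The cut 12 h posterior samples were made the same way with 12 h of culture. The uncut 12 h and 24 h posterior samples came from whole discs in the same kind of host, and the cut 24 h anterior samples from anterior 1/4 fragments. The 3 uncultured posterior samples and the 3 uncultured anterior samples were dissected from fresh discs. RNA was amplified in 2 cycles to biotin-labelled cRNA. Cutting, culture in a female host and selection of the GFP-positive region all separate the cut 24 h posterior samples from the uncultured ones, and cutting and this selection cannot be told apart from each other. The uncut cultured group divides the total into 2 steps.

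Imaginal discs regenerate when a fragment is cultured. Cells at the wound close the gap, turn on JNK and JAK/STAT signalling, divide and restore the missing pattern. Damaged discs secrete the relaxin-like peptide Ilp8, which holds back the ecdysone pulse of the larva, and ecdysone in turn drives discs into metamorphosis. RNA was taken from many cells together, from the GFP-positive region in cut samples and from the matching region in the others, so fewer cells of a type and less RNA per cell cannot be told apart for any gene below.

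Values are log2 units after robust multi-array averaging, each probe set centred on its own mean over the 30 arrays. A value of 0 is therefore the probe set's average in the series and not an absent signal, and no level can be compared between probe sets. A probe set was said to have risen or fallen where limma gave an adjusted p under 0.05, with Benjamini-Hochberg adjustment over 18769 probe sets. Where a number is given as a fold without a sign, rose and fell say its direction. Over all of these, 18.4% were called in the cut 24 h minus uncultured comparison, 11.2% higher and 7.22% lower, and the median log2 difference was -0.03. With 3 samples against 3, a two-sided exact permutation test of a single gene cannot go below p = 0.1, so none was used.

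Region markers and array control probe sets were looked at before the comparison. In fresh discs 0.714% of all probe sets differed between the regions, 0.506% higher and 0.208% lower in the posterior. There the posterior region exceeded the anterior by 2.39 log2 units for B-H2, by 1.79 for ap and by 1.56 for bab1, all regulators of distal leg pattern, and by 1.51 for bi, while tio was lower by -0.61. The other 3 region markers, H15 (0.59), bab2 (0.03) and Scr (-0.29), did not pass (limma adjusted p = 0.465, 0.973 and 0.445). Probe sets for en, inv, hh, ci and ptc, which define the compartments, and for puc, were not named in the tables and are not analysed here. On control probe sets, the centred log2 actin value at the 5′ end minus that at the 3′ end was -0.12, -0.51 and -0.08 in the cut 24 h posterior samples, against 0.53, 0.46 and 0.47 in the uncultured posterior samples. The matching GAPDH values were -0.21, -0.79 and 0.03 in the cut 24 h posterior samples, against 0.25, -0.04 and 0.13 in the uncultured posterior samples. The actin values did not overlap between the groups, and the part of RNA integrity in the results below was not tested.

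Of the 942 members, 302 rose, 180 fell and 460 did not pass the test, beside 11.2% and 7.22% of all probe sets. At least 2-fold changes were called upward in 144 members and downward in 37, where all probe sets gave 3.21% and 0.773%. The 3 cut 24 h posterior values lay entirely above or entirely below the 3 uncultured values in 626 members (66.5%), against 34.3% of all probe sets. Differences ran from -6.73 for ImpE2 to 6.22 for mthl2, with a median of 0.04. Every member of the authors' cluster I, 83 probe sets, rose, by 1.29 to 6.22 log2 units. Of the 31 members in their cluster III 27 fell and 1 rose, of the 429 in cluster II 148 fell and 10 rose, and of the 399 in cluster IV 208 rose and 5 fell. The clusters come from the authors' deposited table on these arrays, so these counts describe the clusters only. Among 19 genes with more than 1 member probe set, 17 had the same call in all of them and in none did one probe set rise while another fell.

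The largest rise among members was that of mthl2, a receptor gene of the Methuselah family of G protein-coupled receptors. It read 3.09, 2.31 and 2.21 in the cut 24 h posterior samples, against -3.66, -3.85 and -3.54 in the uncultured posterior samples. That is a 74.6-fold difference (95% interval 44.6 to 125, limma adjusted p = 3.39e-12), with a wide gap between the groups. Among members whose samples did not overlap, the next was reb, which acts with its paralog in the deposition of chitin, at 1.62, 2.62 and 2.29 in cut 24 h against -3.09, -2.69 and -2.57 in uncultured regions (31.1-fold). NimC4, a receptor with which phagocytes take up dead cells, read 2.14, 2.35 and 1.65 in cut 24 h and -2.85, -2.75 and -2.92 in uncultured regions (29.7-fold, limma adjusted p = 1.92e-11). Neither gene had a cut 24 h value near any uncultured value. Miox, which encodes the oxygenase that breaks down inositol, rose 25.3-fold, and its uncultured values spread more widely, at -1.42, -3.09 and -2.42, below 2.72, 1.91 and 2.42 in the cut 24 h samples.

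Gene names came only from the authors' 2 tables, which hold genes chosen for changing, so the lists below cover only genes that they named. Of the 3171 genes named there, 1254 rose and 701 fell, with a median log2 difference of 0.14, and each list is to be read beside these counts. The lists were chosen with earlier results of these data known. Their counts are therefore a description, and a high share in a list is no test of its theme.

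Wound and regeneration genes rose in larger part. Only cut samples were selected by the GFP label started from puc, so cutting and selection cannot be told apart for these genes. Ilp8 read 2.60, 2.50 and 2.37 in the cut 24 h posterior samples, against -1.70, -1.37 and -1.67 in the uncultured posterior samples, a 16.8-fold difference (95% interval 12.3 to 22.8, limma adjusted p = 7.45e-13). All 3 cut 24 h values were close together and far above the uncultured ones. Of the 12 listed regeneration and wound genes with a named probe set, 9 rose, grh fell and 2 did not pass, with a median log2 difference of 1.22. Ddc, the dopa decarboxylase induced at epidermal wounds, rose 11.1-fold, and Mmp1, a secreted metalloproteinase that opens basement membrane, rose 4.47-fold. Both other Mmp1 probe sets also rose, by 2.59 and 3.09 log2 units. The stress-responsive factor Atf3 rose 4.04-fold and mol, a maturation factor of the NADPH oxidase Duox, rose 4.20-fold. The epidermal factor grh, itself needed for wound repair, differed by -0.32 and lost its call without cut 24 h posterior replicate 2 (limma adjusted p = 0.132), without uncultured posterior replicate 1 (0.0918) or 2 (0.0755), and with the 6 samples alone (0.103).

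**Figure D1:**
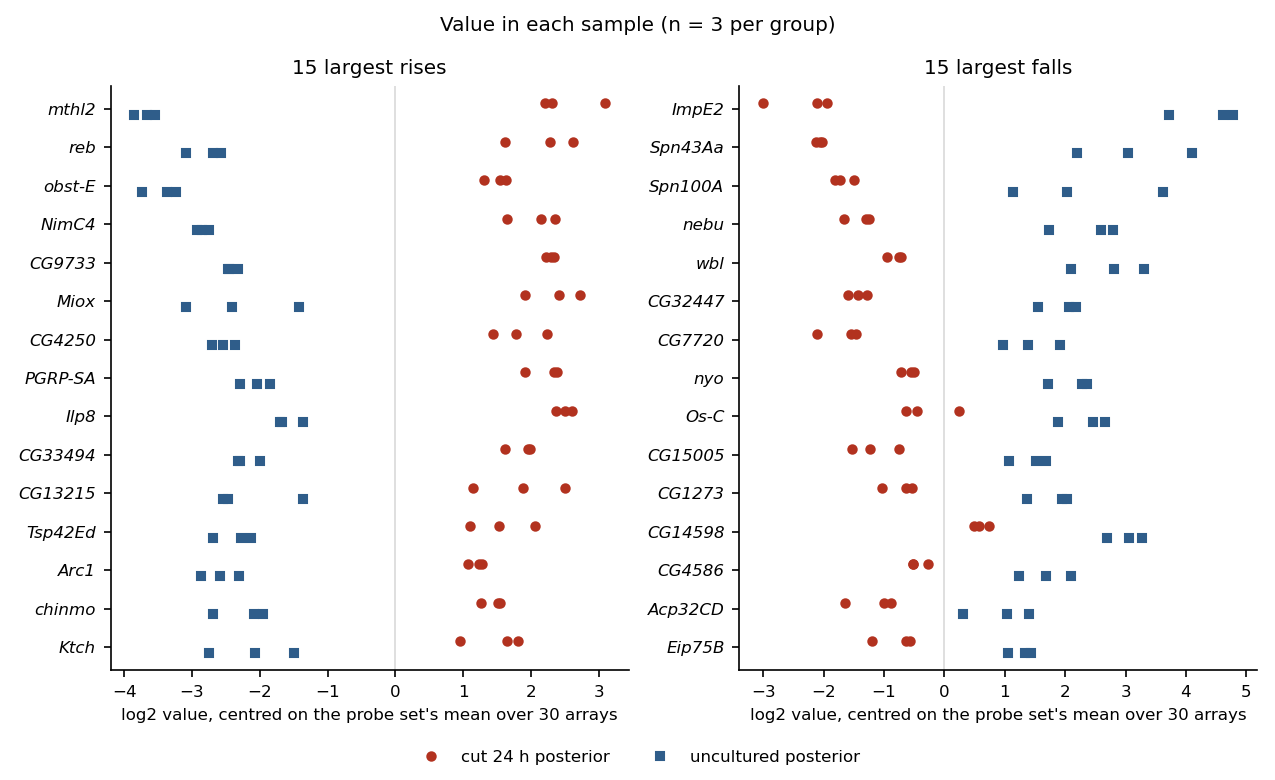
Each point is a sample's log2 value centred on the probe set's mean over 30 arrays (horizontal axis) for the 15 member genes with the largest rises (left) and the 15 with the largest falls (right). Red circles are the 3 cut 24 h posterior samples and blue squares the 3 uncultured posterior samples, and in each of these genes, which were chosen for not overlapping, the groups stand apart, by the widest margin for mthl2 and ImpE2.

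Signalling genes of JAK/STAT and JNK rose in larger part. In JAK/STAT signalling, where unpaired ligands activate a cytokine-type receptor and the transcription factor Stat92E, 7 of 9 named genes rose, none fell and 2 did not pass, with a median of 0.83. The ligand gene upd1 read 1.90, 2.02 and 1.93 in the cut 24 h posterior samples, against -1.44, -1.37 and -1.52 in the uncultured posterior samples, a 10.5-fold rise (limma adjusted p = 2.35e-12). Its spread within each group was small beside the gap. The second ligand on the list, upd3, rose by 0.33 log2 units. The pathway's target gene Socs36E, a negative regulator, rose 1.92-fold, and ken, a repressor of a subset of Stat92E targets, rose 2.68-fold. The BTB zinc-finger gene chinmo, a target of the pathway and a member here, read 1.51, 1.27 and 1.54 in cut 24 h regions and -2.69, -2.08 and -1.96 in uncultured regions (12.8-fold), and its other probe set rose by 4.44 log2 units.

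Of 10 named JNK genes, 7 rose, 1 fell and 2 did not pass, with a median of 1.09. Cut samples were selected by a GFP label started from puc, itself switched on by JNK, and uncultured samples were not. For JNK genes a change with cutting cannot be told apart from this selection. Traf4, an adaptor upstream of the kinase cascade, rose 3.70-fold. The target genes scaf, which encodes a protease-like protein without catalytic activity, and Ets21C, a transcription factor, rose 3.10-fold and 2.98-fold, and the AP-1 subunit gene kay 1.73-fold. The JNK gene bsk itself fell by 0.79 log2 units. Gadd45, a stress sensor, rose 2.66-fold but lost its call without uncultured posterior replicate 3 (limma adjusted p = 0.0558). Pvf1, a ligand of the PDGF/VEGF type and a member, stood just above the threshold, at 0.67, 0.38 and 0.53 in cut 24 h regions against -0.06, 0.16 and -0.30 in uncultured regions (limma adjusted p = 0.0524). Its groups did not overlap, and its call depends on the setting, as given with the threshold values. Pvr, which encodes its receptor, rose by 0.58 log2 units. Of 3 named EGFR genes the ligand gene Krn rose 1.53-fold and 2 did not pass. Of 3 named Hippo and growth genes, the growth regulator Myc rose 1.67-fold, CycE fell 1.47-fold and Mer did not pass. CycE lost its call without uncultured posterior replicate 2 (limma adjusted p = 0.0749).

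Immune genes rose almost throughout. Of 18 named genes of innate immunity, 17 rose and 1, Dif, did not pass, at a median of 1.62. PGRP-SA, the circulating sensor of bacterial peptidoglycan upstream of Toll, read 1.91, 2.38 and 2.33 in the cut 24 h posterior samples, against -1.84, -2.29 and -2.04 in the uncultured posterior samples (19.3-fold, 95% interval 14.6 to 25.4, limma adjusted p = 4.99e-14). The groups were separated by more than 3 log2 units. The antifungal peptide gene Drs rose 7.62-fold, with cut 24 h replicate 2 highest at 2.55 beside 1.34 and 1.03. PGRP-LF, a decoy receptor that restrains the Imd pathway, rose 6.05-fold and PGRP-LC, that pathway's receptor, 4.92-fold. The antibacterial peptide genes AttA and CecB rose 3.89-fold and 3.88-fold, and the thioester protein gene Tep2 4.47-fold.

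Markers of blood cells moved the same way. Of 8 named hemocyte genes, 6 rose, Ppn fell and ush did not pass. Their mean value ran from 0.55 to 0.88 in the cut 24 h posterior samples, against -0.91 to -0.82 in the uncultured posterior samples. In the uncut 24 h posterior samples this mean was -0.20, -0.35 and 0.30, between those of the other groups. Atilla, a lamellocyte surface marker and a member, rose 11.5-fold, Hml 5.34-fold, NimB2 4.35-fold and the phagocytosis receptor gene eater 3.88-fold. Of 6 basement membrane genes 5 rose, among them trol (2.03-fold) and SPARC (1.70-fold), and Ppn fell 1.79-fold. The only named marker of the adult female host, the yolk protein gene Yp1, read 1.10, 1.73 and 3.22 in the cut 24 h posterior samples, against -0.08, -0.52 and -0.12 in the uncultured posterior samples, a 4.79-fold rise. In the uncut 24 h posterior samples Yp1 read 0.56, -0.11 and 0.07. In fresh discs, which had no host, Yp1 was already 2.35 log2 units higher in the posterior region, at -0.24 ± 0.24, than in the anterior region, at -2.59 ± 0.07 (SD, n = 3 each, limma adjusted p = 0.0118). Of 3 named fat body genes, Mtp and Col4a1 both rose 1.66-fold and Ilp6 did not pass. The cut samples had been selected by GFP, a reporter of the larval genotype, and whether host or larval blood, fat or ovary cells contributed to the rise of immune, cuticle or other genes was not tested.

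Glutathione transferase genes, which act in detoxification, rose in larger part. Of 11 named glutathione transferase genes 9 rose, and GstZ1 and GstZ2 fell, by 0.64 and 0.59 log2 units, with a median of 1.59. GstE6 read 1.81, 3.34 and 2.66 in cut 24 h regions, against -2.45, -2.52 and -2.13 in uncultured regions (31.3-fold). Its cut 24 h values spread over more than 1 log2 unit and none came near the uncultured ones. The members GstE7, GstE3 and GstE1 rose 8.10-fold, 7.31-fold and 5.52-fold. These genes lie in a family of similar sequences, and signal shared among them on the probes was not tested. In the list of metallothioneins and oxidative stress, 4 of 8 rose, Keap1 fell and 3 did not pass. MtnA and MtnB, which bind metal ions, rose 11.0-fold and 4.73-fold. MtnB lost its call without cut 24 h replicate 1 (limma adjusted p = 0.0856), uncultured replicate 1 (0.0518) or uncultured replicate 3 (0.0502), and under quantile normalization, where it differed by 1.37 log2 units. The fall of Keap1 was lost without cut 24 h replicate 1 or 2 or uncultured replicate 1 or 2.

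Nutrient sensing genes rose in larger part. Of 13 named genes 8 rose, 2 fell and 3 did not pass, with a median of 0.43. Thor, the translational inhibitor 4E-BP that accumulates when insulin and TOR signalling are low, read 1.41, 0.80 and 0.97 in the cut 24 h posterior samples, against -3.34, -3.09 and -1.85 in the uncultured posterior samples, a 14.1-fold rise. Uncultured replicate 3 was the highest of its group and still well below the lowest cut 24 h value. SNF4Agamma, a subunit of the energy sensor AMPK, rose 2.76-fold, and the kinase gene Lk6 rose 2.35-fold. The amino acid transporter gene mnd fell 2.98-fold and the insulin receptor gene InR fell by 0.51 log2 units. Without cut 24 h replicate 2 or uncultured replicate 1, 1 gene of the list fell instead of 2.

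Genes for tanning and chitin rose in larger part. Of 17 named genes for tanning and chitin, 13 rose, 3 fell and 1 did not pass, with a median of 0.89. Besides reb and Ddc, the chitin-modifying gene Cda5 read 1.53, 1.33 and 1.61 in cut 24 h regions, against -2.33, -2.16 and -2.49 in uncultured regions (14.1-fold). The values within each group lay close together. The probe sets of obst-E, a chitin-binding protein of the obstructor family, rose by 4.94 log2 units on the member probe set and by 2.87 on the other. Yellow-c, of the pigmentation-related yellow family, rose 6.04-fold, and Gld, the glucose dehydrogenase of the cuticle, fell (limma adjusted p = 0.0185). Among 8 named structural cuticle protein genes 4 rose, 2 fell and 2 did not pass. TwdlE rose 5.34-fold, Cpr51A 4.30-fold and Cpr100A 5.75-fold, whereas Cpr49Ac fell 9.88-fold. Cpr100A rested on cut 24 h replicate 3, which read 2.11 beside -0.36 and -1.29, and without it the difference was 1.54 log2 units (limma adjusted p = 0.219). It also lost its call without any 1 of the 3 uncultured samples (0.062 to 0.0724), under quantile normalization (0.29) and with a robust variance prior (0.0531). The 3 falls in the tanning and chitin list became 1 without cut 24 h replicate 3 or uncultured replicate 2, and the 2 in the cuticle protein list became 1 without cut 24 h replicate 2 or 3 or any of the uncultured samples.

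Genes of the ecdysone response fell in larger part. Of 20 named genes, 12 fell, 4 rose and 4 did not pass, with a median of -0.74. ImpE2, an ecdysone-inducible gene of everting discs, read -1.95, -2.10 and -3.01 in the cut 24 h posterior samples, against 4.79, 4.62 and 3.72 in the uncultured posterior samples. It was 106-fold lower in cut 24 h regions (95% interval 42.1 to 267, limma adjusted p = 1.79e-08), and the groups lay more than 5 log2 units apart. ImpE3, of the same class, fell 19.2-fold. The early regulator br fell 4.05-fold and its 4 other probe sets fell too. Eip75B, a nuclear receptor of the early response, fell 4.21-fold and 2.93-fold on its 2 member probe sets and 2.23-fold on the probe set counted in the list, which is no member. In contrast ftz-f1, the nuclear receptor gene that is normally expressed as ecdysone declines, read 1.18, 0.36 and 0.65 in cut 24 h regions and -1.97, -1.63 and -1.09 in uncultured regions (4.90-fold higher). E23, an ecdysone-inducible transporter gene, rose 3.13-fold, ImpL1 rose 2.01-fold and EcR, the hormone's receptor, by 0.66. Without uncultured replicate 1, 2 genes of this list rose instead of 4.

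Other large falls among members included 2 serpin genes. Spn43Aa, a serine protease inhibitor, read -2.13, -2.06 and -2.03 in the cut 24 h posterior samples, against 4.10, 3.05 and 2.20 in the uncultured posterior samples, and was 36.5-fold lower. Spn100A, another serpin, read -1.81, -1.50 and -1.72 in cut 24 h regions, against 3.62, 2.04 and 1.14 in uncultured regions (15.4-fold lower). Each varied little among cut 24 h samples and much among uncultured ones. Among the 15 largest falls, uncultured replicate 1 was the highest of its group in 13 and uncultured replicate 3 the lowest in 13. The sugar transporter gene nebu fell 13.6-fold, wbl, which encodes a protein of the endoplasmic reticulum needed to sort the sulphotransferase Pipe, 11.7-fold, and nyo, a zona pellucida domain protein of apical matrix, 6.56-fold. Of the 7 named genes of the list of chaperones and endoplasmic reticulum stress, 4 fell, wbl and the small heat shock gene Hsp67Ba (3.64-fold) among them, and 2 did not pass. The one that rose, crc (1.43-fold), encodes the stress transcription factor ATF4 and no chaperone.

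Patterning genes fell more often than they rose. Of 8 named leg patterning genes 5 fell, none rose and 3 (B-H2, bi and tio) did not pass, with a median of -0.84. Bab1 read 0.70, -0.07 and -0.41 in cut 24 h regions, against 1.45, 1.59 and 1.14 in uncultured regions (2.50-fold lower), and its groups did not overlap. The selector gene ap fell 2.11-fold, bab2 1.92-fold, H15 1.87-fold and the Hox gene Scr 1.72-fold. Without cut 24 h posterior replicate 2, 1 gene of the list rose. Without cut 24 h posterior replicate 3 the count of falls was 3, with ap at a limma adjusted p of 0.0663 and H15 at 0.096. H15 also lost its call without uncultured replicate 3 (0.104) and under quantile normalization (0.0559). Of 4 Wnt genes, Wnt2 (3.54-fold), nmo (3.06-fold) and fz (1.32-fold) fell and Wnt4 did not pass. Of 9 Notch genes, the coactivator gene mam fell 2.70-fold, the corepressor gene H and the target E(spl)mdelta-HLH both 1.46-fold, and Nedd4 rose 1.33-fold. H lost its call without cut 24 h replicate 2 (limma adjusted p = 0.0706) or uncultured replicate 2 (0.0509). Nedd4 lost its call without cut 24 h replicate 1 or 3 or any of the uncultured samples (0.06 to 0.141), and under quantile normalization (0.161). In the Dpp and Activin list, magu fell 2.81-fold, Smox rose 1.38-fold and 6 of 8 did not pass. Smox lost its call without uncultured replicate 1 (0.0849). Both named epithelial markers, Fas3 (1.66-fold) and grh, fell. Of these, grh had the exceptions given above.

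Of 7 neuron and glia markers, 3 fell and 2 rose. The secreted glial protein gene ana read -2.06, -2.13 and -3.54 in cut 24 h regions, against 1.51, 1.69 and 0.39 in uncultured regions (13.7-fold lower). The sensory precursor genes sens and ase fell 5.03-fold and 2.57-fold, and moody, a receptor of the blood-brain barrier, rose 2.72-fold. The list's mean value ran from -0.37 to -0.18 in cut 24 h samples and from 0.02 to 0.72 in uncultured samples. In the uncut 24 h posterior samples it was 0.95, 0.40 and 0.93. Of 8 muscle and myoblast genes 4 rose, among them bt (3.10-fold) and Mlc2 (1.61-fold), Him fell 1.44-fold, and twi, htl and zfh1 did not pass. Under quantile normalization 1 of the 8 rose, and 2 rose without cut 24 h replicate 2 or 3 or without uncultured replicate 1 or 3. Mlc2 was among the lost calls (limma adjusted p = 0.0543 to 0.154), and Him lost its call without uncultured replicate 1 (0.0652). The tracheal marker dysf fell 1.45-fold.

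Listed genes of DNA replication and the cell cycle and of the proteasome fell by small amounts or did not pass. Of 15 DNA replication and cell cycle genes 9 fell, none rose and 6 did not pass, at a median of -0.40. The replicative helicase gene Mcm7 read 0.27, 0.28 and 0.04 in cut 24 h regions, against 0.64, 0.79 and 0.80 in uncultured regions (1.46-fold lower), without overlap. Mcm7 lost its call without cut 24 h replicate 3 (limma adjusted p = 0.0775), without uncultured replicate 2 (0.0532) or 3 (0.053), and under quantile normalization (0.0555). Tos, an exonuclease gene, fell 1.86-fold and CycE, the cyclin of S phase entry, 1.47-fold. The count was 3 without cut 24 h replicate 3 and 4 without uncultured replicate 2. Of 29 proteasome genes 15 fell and none rose, at a median of -0.34, with Rpn12 (1.52-fold), Rpn7 (1.45-fold) and Prosbeta2 (1.41-fold) leading. The proteasome count was 4 without cut 24 h replicate 3, 7 without uncultured replicate 1, 6 without uncultured replicate 2 and 8 under quantile normalization. Rpn7 lost its call without cut 24 h replicate 3 (limma adjusted p = 0.0811).

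Of 38 genes of the respiratory chain and ATP synthase 10 fell, none rose and 28 did not pass, with a median of -0.20. Of all named genes, 22.1% fell. COX8, a subunit of cytochrome c oxidase, read 0.34, 0.05 and 0.17 in cut 24 h regions, against 0.78, 0.74 and 0.74 in uncultured regions (1.48-fold lower). The groups did not overlap. The 10 calls became 2 without cut 24 h replicate 2, 6 without replicate 3 and 4 without uncultured replicate 1. Of 23 ribosome biogenesis genes 3 rose, 3 fell and 17 did not pass. The risers were Non1, a GTP-binding protein of the nucleolus (2.15-fold), the growth regulator Myc, and rudhira (1.75-fold), the fly counterpart of a cytoskeletal protein and not known as a ribosome factor. The 3 falls became 0 without cut 24 h replicate 3 or uncultured replicate 1, and 1 without uncultured replicate 2. Of 5 glycolysis genes Pfk, which commits sugar to glycolysis, fell 1.70-fold, while Ldh differed by 0.55 log2 units and did not pass. Of 9 apoptosis genes 6 rose and none fell, with Corp (2.38-fold), Buffy (2.04-fold) and the inhibitor Diap2 (1.62-fold) above the caspase gene Dcp-1 at 0.34 log2 units. Of 6 Polycomb and trithorax genes, ash2 rose 2.05-fold, Su(z)2 rose 1.34-fold and E(Pc) fell 2.12-fold. Su(z)2 lost its call without cut 24 h replicate 1 or 2 or uncultured replicate 1 or 3 (limma adjusted p = 0.051 to 0.254). The same held under quantile normalization (0.254) and with the 6 samples alone (0.204). Of 8 adhesion genes with immunoglobulin domains, Nrg rose 1.77-fold, Dscam1 rose 1.29-fold, and ImpL2 fell 1.80-fold with overlapping groups. Dscam1 lost its call without cut 24 h replicate 3 (0.0682), and ImpL2 without cut 24 h replicate 2 or 3 or uncultured replicate 1 or 2 (0.107 to 0.191). ImpL2 also lost it under quantile normalization (0.0706), with the 6 samples alone (0.069) and with a robust variance prior (0.0516).

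**Figure D2:**
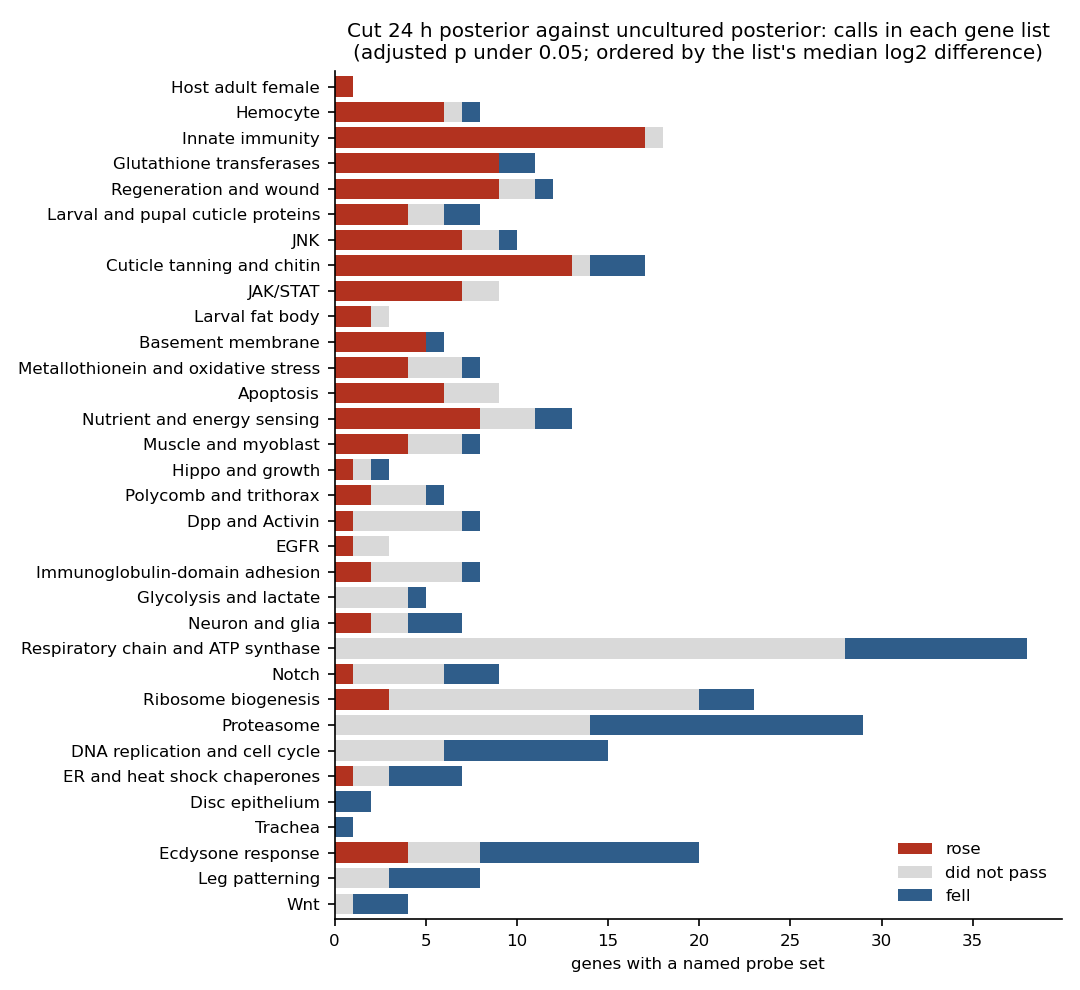
Bars count the genes with a named probe set in each of 33 lists (horizontal axis), split into those that rose (red), did not pass (grey) or fell (blue) in cut 24 h posterior against uncultured posterior samples at an adjusted p under 0.05. Lists are ordered by their median log2 difference, and innate immunity shows 17 of 18 genes rising while proteasome and respiratory chain genes show none.

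The total difference has 2 steps. The cutting step is cut 24 h minus uncut 24 h. It holds both the cut and the GFP selection, which cannot be told apart. The culture step is uncut 24 h minus uncultured. The steps share the uncut 24 h samples and add up to the total by construction. Across all probe sets 9.85% were called in the cutting step, 4.81% higher and 5.04% lower, and 24.1% in the culture step, 14.6% higher and 9.56% lower. Among members 396 rose and 289 fell in the cutting step, and 455 rose and 435 fell in the culture step, and nothing is read from these counts, since the authors chose both tables on tests that hold these groups. The median absolute log2 difference of the members was 0.51 in the cutting step, 0.82 in the culture step and 0.38 in the total. Over all probe sets it was 0.11, 0.15 and 0.14. Members were chosen on tests of the steps and not of the total, so their smaller total is not read as a reversal. In Ilp8 the cutting step was 3.93 log2 units (limma adjusted p = 8.52e-12) and the culture step 0.14 (0.728). Ddc likewise had 3.34 and 0.13, and upd1 2.79 and 0.60. At the other end, wbl had -0.05 in the cutting step (limma adjusted p = 0.96) and -3.50 in the culture step (1.88e-10), and Thor had 0.13 and 3.69.

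Several genes passed in both steps with the same sign. Members were chosen on tests that hold both steps, so passing in both is partly built in. In mthl2 the cutting step was 2.92 and the culture step 3.30 log2 units, in NimC4 they were 2.33 and 2.56, and in CG9733, a serine protease gene, 2.28 and 2.43. CG4250 had 2.09 and 2.26. Downward, ImpE2 had -2.77 and -3.96, Spn43Aa -2.94 and -2.25, Spn100A -2.01 and -1.93, and CG32447 -1.58 and -1.79.

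Other members passed in both steps with opposite signs. Noise in the shared uncut 24 h samples enters the 2 steps with opposite signs, and members were chosen on tests that hold them. Such pairs are therefore favoured by the choice of members, and they are given as a description. CG32055 read -1.29, -0.23 and -0.58 in the cut 24 h posterior samples, against -1.10, -1.10 and -0.90 in the uncultured posterior samples. These overlapped, and the total of 0.33 log2 units did not pass (limma adjusted p = 0.568, 95% interval of the ratio 0.789 to 2.01), while its cutting step was -2.62 and its culture step 2.95. The translation factor gene eEF1alpha2 had -2.19 in the cutting step and a total of -0.18, and the mucin gene Muc91C -2.09 and 1.84 with a total of -0.24. Ptr, a relative of the Hedgehog receptor gene, had -2.01 and 2.69, and its total of 0.69 did not pass in this fit but did with the 6 samples alone (limma adjusted p = 0.00807). In CG5687 the steps were -1.73 and 2.74 and the total of 1.01 passed, except under quantile normalization, where it was 0.58.

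**Figure D3:**
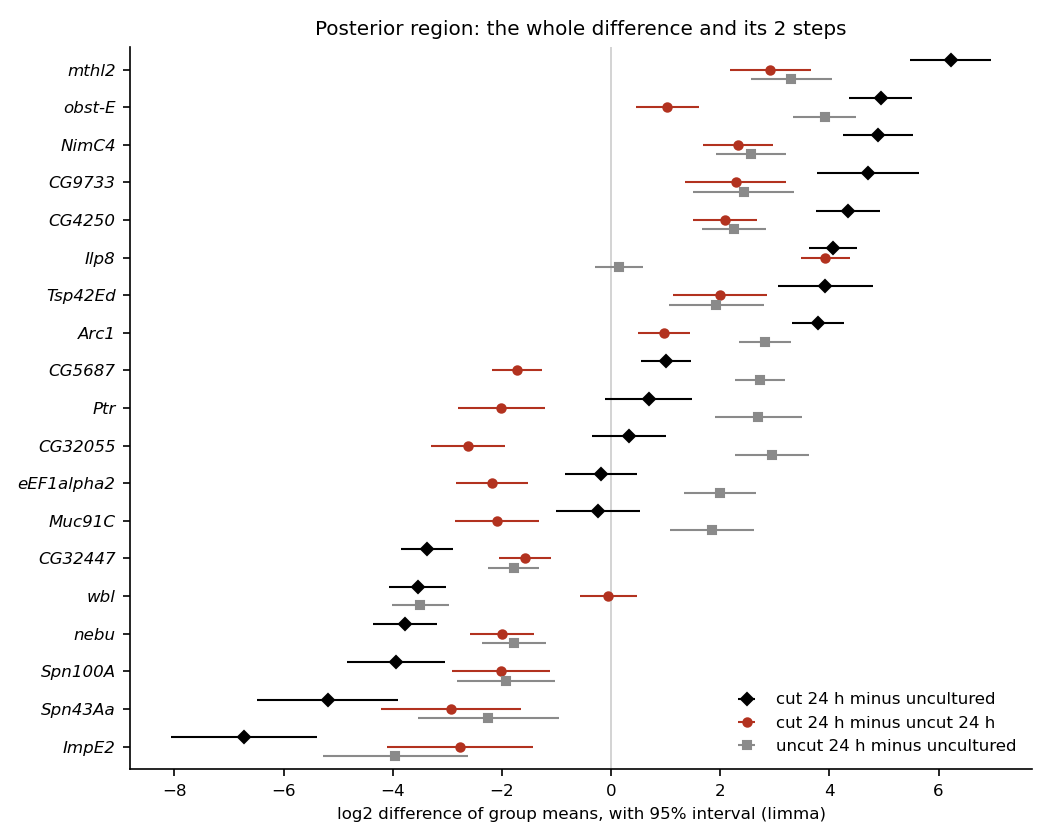
Points give the log2 difference of group means with its 95% interval from limma for cut 24 h minus uncultured posterior (black), cut 24 h minus uncut 24 h posterior (red) and uncut 24 h minus uncultured posterior (grey). Genes that moved the same way in both steps stand at the top and bottom, 5 genes with opposite steps stand in the middle, and in Ilp8 and wbl 1 of the 2 steps lies at about 0.

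Some probe sets of the posterior region differed between 12 and 24 h after cutting, in numbers that depended on single samples. In the cut 24 h minus cut 12 h comparison 0.986% of all probe sets were called, 0.906% higher and 0.0799% lower, and among members 70 rose and 5 fell. Of the 302 members that rose over fresh discs, 70 passed the 24 h against 12 h test, and of the 180 that fell 4 did. The cut 12 h mean lay between the uncultured and cut 24 h means in 288 of the 302 and in 133 of the 180. Members called for a difference between these ends tend to have a 12 h mean between them. The share over all probe sets is not given here, so nothing is read from these 2 counts. Between these times Miox rose by 2.14 log2 units, mthl2 by 1.86, PGRP-SA by 1.75, obst-E by 1.49 and NimC4 by 1.47. For PGRP-SA the means ± SD were -2.06 ± 0.23 at 0 h, 0.46 ± 0.09 at 12 h and 2.21 ± 0.26 at 24 h (n = 3 each). Ilp8 stood at -1.58 ± 0.18, 1.48 ± 0.15 and 2.49 ± 0.12. Among the 5 members that fell, nebu differed by -1.29, wbl by -1.16, CG32447 by -1.05 and CG6026 by -0.64, and CG6026 did not pass against fresh discs at 24 h (-0.16). These counts were sensitive to single samples: without cut 12 h posterior replicate 3, 8 probe sets rose and 2 fell over the whole array instead of 170 and 15. Without cut 12 h replicate 2 they were 24 and 5, without cut 24 h replicate 1 89 rose, without replicate 2 they were 81 and 6, and without replicate 3 73 and 5. Of the 9 genes named here, 8 lost their call without cut 12 h replicate 3 and 6 without cut 12 h replicate 2. Under quantile normalization mthl2 differed by 0.90, NimC4 by 0.72 and Miox by 1.58, and none of the 3 passed (limma adjusted p = 0.403, 0.403 and 0.0562).

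**Figure D4:**
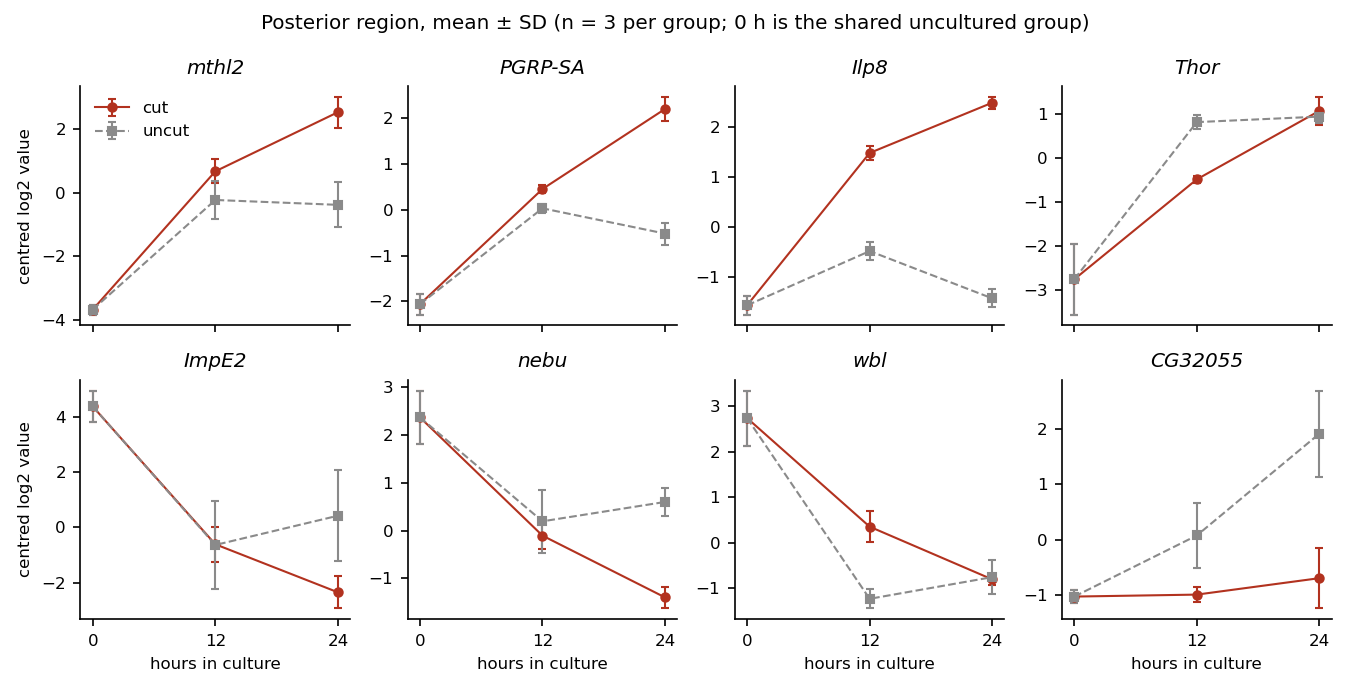
Lines give the mean ± SD of 3 posterior samples per group (vertical axis, centred log2 value) against hours in culture for cut (red, solid) and uncut (grey, dashed) discs, which share the uncultured samples at 0 h. In mthl2, PGRP-SA and Ilp8 the cut line keeps climbing to 24 h, in Thor and wbl both lines meet at 24 h, and in CG32055 only the uncut line climbs.

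The anterior fragments gave a separate set of samples for the same contrast. The authors' overall tests, by which the members were chosen, also included anterior comparisons. Agreement of members between the regions is therefore partly built in, and the counts below are a description. Against uncultured anterior regions, 290 members rose and 161 fell in cut 24 h anterior regions, where 13.1% of all probe sets were called, 7.56% higher and 5.53% lower. Of the 302 members that rose in the posterior region 242 (80.1%) also rose in the anterior, which is 83.4% of the 290, and 119 of the 180 that fell (66.1%) also fell there, 73.9% of the 161. Of the 15 largest rises 14 passed in the anterior region in the same direction, as did 14 of the 15 largest falls. Mthl2 rose there by 5.41 log2 units, Miox by 5.97 and Ilp8 by 2.88, and ImpE2 fell by 5.06. CG13215 differed by 1.06 and CG14598 by -0.08, and neither passed.

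The test of the posterior minus anterior difference called 5 probe sets (0.0266% of all, 0.016% higher and 0.0107% lower), 3 of them members. CG14598 averaged 0.60 ± 0.12 in cut 24 h and 3.01 ± 0.29 in uncultured posterior regions, and 0.58 ± 0.78 in cut 24 h and 0.66 ± 0.41 in uncultured anterior regions (SD, n = 3 each). The difference between the regions was -2.32 log2 units (limma adjusted p = 0.0367). Magu, a secreted modulator of the Dpp gradient and no member, fell in the posterior and differed by -0.25 in the anterior region, a difference of -1.24. CG30271 (1.10), the calcium-binding protein gene Cbp53E (1.56) and the adenylyl cyclase gene Ac76E (1.72), the last no member, were higher in cut 24 h than in uncultured posterior regions, and lower in cut 24 h than in uncultured anterior regions by -0.35, -0.92 and -0.77. The posterior rise of Cbp53E lost its call without cut 24 h posterior replicate 3 (limma adjusted p = 0.15) or uncultured posterior replicate 1 (0.12) or 2 (0.0835). It was also lost under quantile normalization (0.296) and with array weights (0.0517). At an unadjusted p under 0.05, 1020 probe sets differed, and the calls of CG14598, CG30271 and Cbp53E were lost without cut 24 h anterior replicate 1 or 2, cut 24 h posterior replicate 2 or 3, uncultured anterior replicate 2 or uncultured posterior replicate 2 or 3. All 5 calls, those of magu and Ac76E included, were lost with array weights and without cut 24 h anterior replicate 1, cut 24 h posterior replicate 2, uncultured anterior replicate 2 or uncultured posterior replicate 2 or 3, and no rise was called under quantile normalization. For the other members the region difference did not pass, which does not show that the regions responded alike. Arc1 (1.66), eEF1alpha2 (-2.31) and CG15005 stood just outside the threshold, each with a limma adjusted p of 0.0569. In eEF1alpha2 the anterior change of 2.12 log2 units passed and the posterior one did not.

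**Figure D5:**
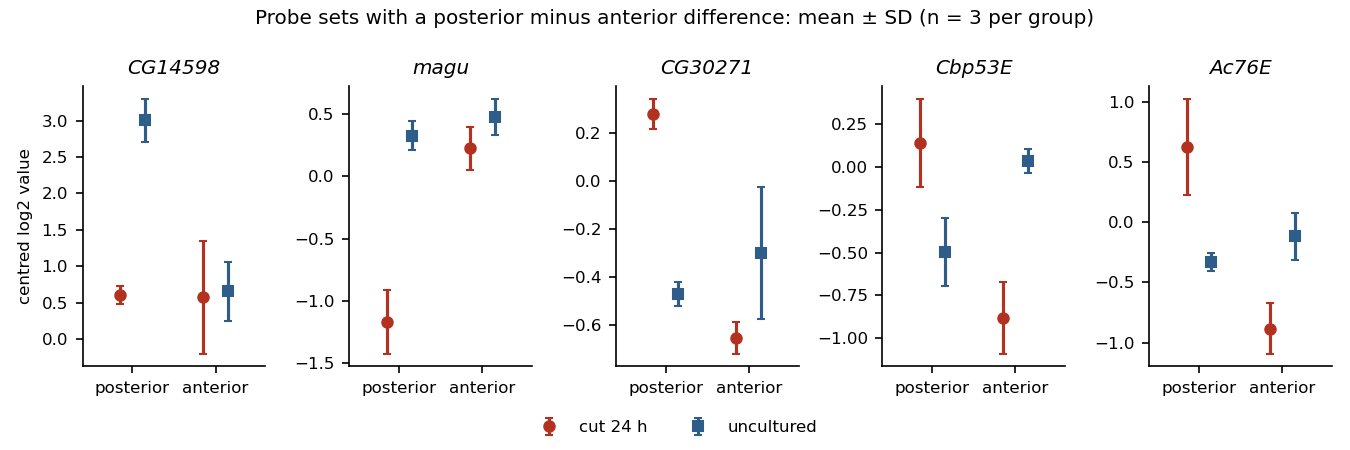
Points are the mean ± SD of 3 samples (centred log2 value) for cut 24 h (red circles) and uncultured (blue squares) samples in the posterior and anterior regions, for the 5 genes with an adjusted p under 0.05 for the difference between regions. In CG14598 and magu the posterior cut 24 h mean lies below the uncultured one and the anterior means lie close together, and in the other 3 genes cut 24 h is above uncultured in the posterior and below it in the anterior region.

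Around the threshold, the members just inside were mura (0.36 log2 units), CG30047 (0.38) and CG6610 (-0.41), with adjusted p-values of 0.0478, 0.0486 and 0.0497. Just outside stood UQCR-6.4 (-0.28, 0.0507), Ald1 (0.29, 0.0509) and Pvf1. Differences of this size were therefore near the limit of detection with 3 arrays per group, where the median standard error of a member was 0.13 log2 units. Mura, CG30047 and CG6610 each lost their call without several of the single samples. Pvf1 passed without uncultured posterior replicate 2 (limma adjusted p = 0.0467), with the 6 samples alone (0.0148) and with arrays centred on their medians (0.0488). UQCR-6.4 passed with arrays centred on their medians (0.0428), with array weights (0.0245), without cut 24 h replicate 1 (0.0306) and without uncultured replicate 3 (0.0431). Ald1 passed with arrays centred on their medians (0.0376), with array weights (0.0447) and without cut 24 h replicate 3 (0.0426).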

How the data were processed

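RNA of dissected or GFP-selected disc regions was hybridised to 30 one-colour expression arrays. The deposited value table holds log2 values that the authors made with RMA, per the submitters' processing notes, and each probe set in it has a mean of 0 over the 30 arrays, to within 2.6e-09. The authors deposited 2 comparison tables with log2 fold changes and p-values from their limma tests, which were used here to choose members and to take gene names. Array build and software versions were not given in the sources used here.

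One model with a mean for each of the 10 groups was fitted to all 30 arrays with limma 3.58.1 in R 4.3.3 (empirical Bayes, 18769 probe sets after leaving out 183 control probe sets, Benjamini-Hochberg adjustment), after a test on simulated data. Tables were made with Python 3.11.15 and pandas 2.3.3. The cut 24 h minus uncultured difference equals the sum of the authors' 2 fold changes. Because the values are centred, the planned choice of the probe set with the highest mean level per gene could not be made. Probe sets were taken by suffix instead, unique ones first, and a filter on dim probe sets was not possible. Of 3541 probe sets listed in either table, 3325 had a name. Of these, 2633 matched a current RefSeq symbol (assembly Release 6 plus ISO1 MT) and 647 a synonym, 12 were chosen by hand among synonyms, and 22 ambiguous and 11 unmatched names were kept. Named genes were the 15 largest rises and falls among members whose samples do not overlap, up to 4 per gene list, up to 5 per direction for the other differences, and the members nearest the threshold. Further list genes were named after their values were seen. Members and lists were chosen with earlier results of these data known. Deviations of same-numbered cut 24 h and uncultured posterior samples were close to uncorrelated, which cannot exclude shared handling, and other groups were not checked for pairing. The number of arrays limits the precision.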

Additional observations from a re-analysis of the deposited data

Results flagged for a closer look

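In 5 genes the change between cut 24 h and uncultured regions differed between the posterior and the anterior region by the limma interaction test. The difference, posterior minus anterior, was -2.32 log2 units (SE 0.382) for CG14598, -1.24 (SE 0.222) for magu, 1.10 (SE 0.194) for CG30271, 1.56 (SE 0.286) for Cbp53E and 1.72 (SE 0.299) for Ac76E. The adjusted p was 0.0438 for Cbp53E and 0.0367 for the other 4. The calls of CG14598, CG30271 and Cbp53E were all lost under quantile normalization (adjusted p = 0.405, 0.14 and 0.405), with array weights (0.0645, 0.0645 and 0.144) and on leaving out any of several single samples. With array weights, and without cut 24 h anterior replicate 1, cut 24 h posterior replicate 2, uncultured anterior replicate 2 or uncultured posterior replicate 2 or 3, 0 probe sets were higher and 0 lower, so magu and Ac76E lost their calls there too. Under quantile normalization 0 were higher, Ac76E included.

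Outside the gene probe sets, 4 of the array's 183 control probe sets, which are left out of the comparison, were higher in the cut 24 h posterior than in the uncultured posterior samples. Their group means ran from 2.15 to 2.55 in the cut 24 h, from 0.34 to 0.58 in the uncut 24 h and from -4.46 to -3.40 in the uncultured posterior samples. Their log2 differences were 5.58, 5.59, 6.48 and 7.01, or 47.7-fold to 129-fold. The next highest control probe set differed by 1.88 and the lowest by -0.73. What these 4 detect was not resolved here, and their part in the results was not tested.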

How the results depend on the processing

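Having 3 arrays per group and no absolute levels limits the precision: dim probe sets could not be set aside, and the filter on dim probe sets and the trended variance prior were not run for that reason. A robust variance prior was added after seeing the data. The counts of probe sets higher and lower in cut 24 h than in uncultured posterior regions were 1511 to 2191 and 1123 to 1574 over the other settings, and the share of calls that were higher ran from 54.7% to 66.9% over all settings, leaving out samples included. Under quantile normalization 306 probe sets were at least 2-fold higher, 39 were lower at 24 h than at 12 h, the region difference had 0 higher calls, and CG32055 changed sign, to -0.17. With only the samples of the groups compared, 267 probe sets were higher and 31 lower at 24 h than at 12 h, and the region difference gave 42 and 16. With array weights the region difference gave 0 and 0. The cause of these shifts was not tested. With a replicate block there were 2123 higher and 1460 lower probe sets, and 6 higher calls in the region difference. Deviations of same-numbered cut 24 h and uncultured posterior samples correlated at 0.0068, 0.0314 and 2e-04. Those of differently numbered samples ran from -0.0984 to 0.0815. With 3 samples per group these correlations cannot exclude shared handling of same-numbered samples.

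Leaving out single samples gave 1550 to 1896 higher and 887 to 1491 lower probe sets, with the fewest lower ones without uncultured posterior replicate 2. The counts at 24 h against 12 h ran from 8 to 176 higher and from 2 to 22 lower, and those of the region difference from 0 to 15 and from 0 to 7. Of the list counts, those of hemocyte genes (6 rose), regeneration genes (9 rose) and neuron and glia genes (2 rose, 3 fell) were the same in every setting. Innate immunity gave 16 to 17 rises, ecdysone response 10 to 12 falls, proteasome 4 to 17 falls and the respiratory chain 2 to 14 falls.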
